A study of Mus musculus with 6 samples.

Results

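The genes described here encode proteins of the large subunit of the mitochondrial ribosome. They are the 45 targets, of 30828 in the deposited table, whose target ID is MRPL followed by a number and nothing else. Each was read in MC38 cells, a mouse colorectal cancer cell line, in 3 samples exposed for 24 h to 50 µM EPA, and in 3 control samples. EPA is eicosapentaenoic acid, an omega-3 fatty acid of fish oil, and was supplied here in free fatty acid form. Both groups were grown in RPMI with foetal calf serum, per the labels, which state neither a time nor a vehicle for the controls, so an effect of either and an effect of EPA cannot be told apart. Total RNA of each sample was hybridised to 1 Illumina mouse whole-genome bead array. Whether replicates are independent cultures is not stated in the labels, and the spread behind each p-value is therefore that between 3 samples and could be technical alone. All results are from 1 cell line.

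Mitochondria translate the few proteins encoded by their own genome, all of them subunits of the respiratory chain and ATP synthase, on a ribosome of their own. Its proteins are encoded in the nucleus, made in the cytosol and imported, and its large subunit holds the site of peptide bond formation and the tunnel through which the new chain leaves towards the inner membrane. Some of its proteins have counterparts in every ribosome, others are shared with bacteria, and a further set is found in mitochondria alone.

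Values are quantile-normalised intensities, so an array-wide change in RNA amount could not be seen. Because probes differ in brightness, intensities were compared between arrays for the same gene and not between genes. In these samples fewer cells of a type and less RNA per cell cannot be told apart. Of the fixed cell type markers, 1 of 11 colon epithelial genes was above background, and Epcam and Cdh1, the defining ones, were not. Mesenchymal markers were above background in 7 of 7 cases, Col1a1 through the EPA arrays alone (mean 40.9 with EPA, 35.6 in control cells). Their summed intensity was 7914 to 8520 on the EPA arrays and 4448 to 4886 on the control arrays. Most of that sum was Vim, which averaged 6431 with EPA and 3587 in control cells. In the test 5 of the 7 passed as higher with EPA (71.4%, against 18.4% of all genes), while Col1a1 and Acta2 did not pass. Immune markers were above background in 1 of 7 cases, with Ptprc, Itgam and Cd3e below it, and endothelial markers in 0 of 3. What part, if any, the rise of these 5 mesenchymal markers has in the results below was not tested.

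A target was tested if all 3 arrays of either group exceeded the background limit, an intensity of 39.44. Of the 45 large subunit genes, 40 passed, and each of them lay above the limit on all 6 arrays. Mrpl19, Mrpl21, Mrpl32, Mrpl39 and Mrpl45 did not pass. Mrpl39 exceeded the limit on 1 control array and on no EPA array, and the other four on none.

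Many large subunit genes were lower with EPA. In limma, 18 of the 40 tested genes passed an adjusted p of 0.05 as lower, 0 as higher, and 22 did not pass in either direction. At an unadjusted p of 0.05 the limma counts were 23 lower and 0 higher. Among all 9273 genes tested, 34.0% passed, 15.6% as lower and 18.4% as higher. The log2 fold change was negative for 38 of the 40, against 48.0% of all genes. Its median was -0.22 for the large subunit and 0.01 for all genes. On all 3 EPA arrays the intensity was below every control array for 25 of the 40, where 22.7% of all genes showed this, and above every control array for 1, Mrpl34, where 24.9% of all genes did. The changes were modest, and the largest was a 1.67-fold fall.

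Taken array by array, the median log2 intensity of the 40 genes relative to their control means was -0.22, -0.21 and -0.25 on the EPA arrays and 0.02, -0.04 and 0.01 on the control arrays. The 3 EPA arrays thus stood close together and apart from the controls. Of the 40 genes, 35, 30 and 37 lay below their control mean on the EPA arrays, and 17, 25 and 15 on the control arrays.

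**Figure D1:**
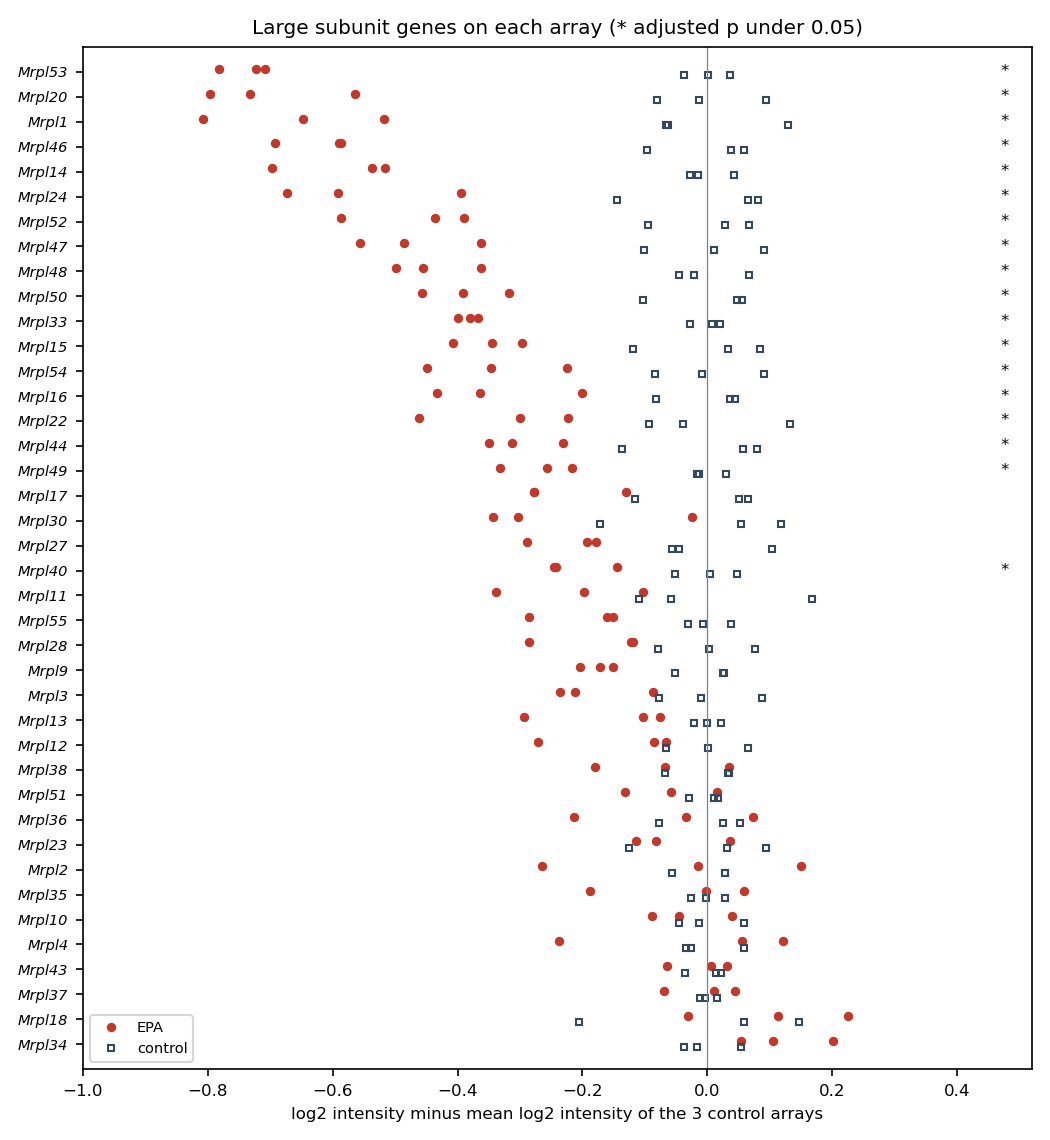
Intensity of the 40 tested large subunit genes on each array, as log2 intensity minus the gene's mean over the 3 control arrays (x axis), with 1 row per gene. Filled circles are EPA arrays, open squares control arrays, and asterisks mark the 18 genes with an adjusted p under 0.05. All 18 lie left of their controls, and most genes at the bottom overlap them.

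The upstream sequences of 4 genes are printed because they carry the contrasts described further on. Mrpl53 and Mrpl14 are large falls, Mrpl46 starts next to the gene of a small subunit protein that fell too, and Mrpl43 starts next to Twnk and stayed near its control level. Each is the stretch before the annotated start, 5′ to 3′ on the gene's strand, from the RefSeq promoter table of GRCm38.p6. It is 250 bases long unless a gene on the opposite strand starts sooner, and then ends at that gene's start. Capitals mark the ETS-family core CCGGAAG or its reverse complement.
Mrpl53, chr6:83108858-83109107, plus strand: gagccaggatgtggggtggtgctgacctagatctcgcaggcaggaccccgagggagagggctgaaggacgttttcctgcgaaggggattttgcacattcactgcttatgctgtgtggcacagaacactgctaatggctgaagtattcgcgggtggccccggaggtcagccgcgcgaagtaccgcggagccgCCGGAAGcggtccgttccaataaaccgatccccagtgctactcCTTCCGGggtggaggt
Mrpl14, chr17:45686219-45686348, plus strand: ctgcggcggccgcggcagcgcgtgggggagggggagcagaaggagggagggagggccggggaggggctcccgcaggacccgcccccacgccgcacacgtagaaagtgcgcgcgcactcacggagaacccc
Mrpl46, chr7:78783090-78783130, minus strand: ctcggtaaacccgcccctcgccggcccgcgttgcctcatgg
Mrpl43, chr19:45006443-45006557, minus strand: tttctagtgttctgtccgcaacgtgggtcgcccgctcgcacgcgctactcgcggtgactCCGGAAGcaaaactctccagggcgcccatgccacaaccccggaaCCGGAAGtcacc

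Proteins found only in mitochondrial ribosomes had the highest share of falls. Of 13 tested genes of this class, 9 fell (69.2%, against 15.6% of all genes), 0 rose and 4 did not pass. Their median log2 fold change was -0.30. Mrpl53 read 2548, 2573 and 2446 on the EPA arrays, against 4208, 4310 and 4096 on the control arrays. That is a 1.67-fold fall (log2 -0.74, SE 0.0685, limma adjusted p = 7.58e-05), the largest of the 40, and the groups stood far apart with little spread in either. Mrpl46, a protein of the central protuberance at the top of the subunit, read 643, 644 and 599 with EPA and 993, 905 and 1008 in control cells (1.54-fold lower, log2 -0.62, limma adjusted p = 0.000287). Mrpl48, from the same region, read 546, 497 and 512 with EPA and 735, 680 and 692 in control cells (1.36-fold lower, limma adjusted p = 0.00165). For both genes every EPA array lay below every control array.

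Mrpl52 read 1338, 1167 and 1295 on the EPA arrays and 1640, 1835 and 1788 on the control arrays (1.39-fold lower, limma adjusted p = 0.00204). For Mrpl50 the EPA arrays gave 1447, 1314 and 1374 and the control arrays 1864, 1678 and 1873 (1.31-fold lower, limma adjusted p = 0.0043). These falls were about as large as that of Mrpl48, with no overlap between groups. Mrpl54 read 2774, 2550 and 2376 with EPA and 3224, 3060 and 3454 in control cells (1.27-fold lower, limma adjusted p = 0.0122). Mrpl49 read 446, 483 and 470 with EPA and 555, 573 and 556 in control cells (1.20-fold lower, limma adjusted p = 0.0156). Both were smaller changes in which the groups still did not overlap.

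Mrpl44, a relative of the ribonuclease III enzymes that sits near the exit tunnel, read 278, 271 and 294 with EPA and 359, 314 and 365 in control cells (1.23-fold lower, limma adjusted p = 0.0197). Its call was lost without EPA replicate 2, control replicate 1 or control replicate 3. Mrpl40, another protein of the central protuberance, read 1555, 1450 and 1452 with EPA and 1723, 1658 and 1776 in control cells (1.16-fold lower, limma adjusted p = 0.0455). It was the weakest of the 18 calls. It held in 1 of the 6 fits that left out an array, with adjusted p from 0.0361 to 0.131. The 4 members of this class that did not pass were Mrpl37, Mrpl43, Mrpl38 and Mrpl51, none with a log2 fold change below -0.07.

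Proteins with counterparts in every ribosome fell in 7 of 16 tested cases (43.8%, against 15.6% of all genes), with 0 higher. Their median log2 fold change was -0.22. Mrpl1, the protein of the flexible stalk near which spent transfer RNA leaves, read 265, 296 and 324 on the EPA arrays, against 444, 443 and 507 on the control arrays (1.58-fold lower, log2 -0.66, SE 0.0949, limma adjusted p = 0.00074). Mrpl14, on the face that meets the small subunit, read 3027, 2983 and 2671 with EPA and 4287, 4246 and 4457 in control cells (1.50-fold lower, log2 -0.58, limma adjusted p = 0.000423). In both genes the highest EPA value was well below the lowest control value.

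Of the 6 tested genes assigned here to the peptide exit tunnel, 4 fell (66.7%, against 15.6% of all genes). That list may leave out proteins of the tunnel. Mrpl4, which did not pass, was counted with the site of peptide bond formation and not here. Mrpl24 read 1150, 1004 and 948 with EPA and 1599, 1581 and 1367 in control cells (1.47-fold lower, limma adjusted p = 0.00203). Mrpl47 read 807, 741 and 706 with EPA and 1105, 967 and 1046 in control cells (1.38-fold lower, limma adjusted p = 0.00224). Mrpl22, whose bacterial counterpart lines the narrow part of the tunnel, read 1563, 1326 and 1482 with EPA and 1776, 2001 and 1711 in control cells (1.26-fold lower, limma adjusted p = 0.0199). The fourth was Mrpl44, described with the mitochondria-specific proteins. The call for Mrpl22 was lost without EPA replicate 2 or control replicate 2, while those for Mrpl24 and Mrpl47 held whichever array was left out. Mrpl17 (log2 -0.23, limma adjusted p = 0.0555) and Mrpl23 (log2 -0.05, 95% interval -0.24 to 0.13) did not pass.

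Close to the site of peptide bond formation, Mrpl16 was the gene of 4 that fell. It read 494, 518 and 580 on the EPA arrays and 688, 684 and 630 on the control arrays (1.26-fold lower, limma adjusted p = 0.0128). Mrpl3 did not pass, with log2 -0.18 and limma adjusted p = 0.107, although its EPA arrays, at 655, 714 and 644, all lay below its control arrays, at 806, 719 and 753. Mrpl2 and Mrpl4 had intervals of -0.27 to 0.19 and -0.24 to 0.20 on the log2 scale. These intervals leave room for a fall of the size seen for Mrpl3. Mrpl15, which binds the ribosomal RNA in the interior of the subunit in bacteria, read 588, 635 and 614 with EPA and 798, 718 and 827 in control cells (1.27-fold lower, limma adjusted p = 0.00799).

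Mrpl10, Mrpl11 and Mrpl12 were assigned here to the stalk that recruits the GTPase translation factors and to its base. Of these 3 genes, 0 passed the test in limma, and 0 at an unadjusted p of 0.05. The assignment may not be complete, so the count does not speak for the whole stalk. Of the 21 tested genes assigned to no site here, 10 fell (47.6%, against 15.6% of all genes), Mrpl53 and Mrpl54 among them. Mrpl12, which in human cells also binds the mitochondrial RNA polymerase, read 3281, 3237 and 2845 with EPA and 3281, 3592 and 3437 in control cells. The groups met at their edges, and the log2 fold change was -0.14 with a 95% interval of -0.32 to 0.04. Mrpl10 had an interval of -0.19 to 0.13. Mrpl11 had a log2 fold change of -0.21, as large as that of Mrpl40, but with a wider spread (limma adjusted p = 0.115). The difference between these 3 genes and the rest of the subunit was not tested.

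Proteins shared with bacteria but not with other ribosomes fell in 2 of 11 tested cases (18.2%, near the 15.6% of all genes), with 0 higher. Mrpl20, whose bacterial counterpart binds the ribosomal RNA early in assembly, read 316, 302 and 355 on the EPA arrays, against 560, 496 and 520 on the control arrays (1.62-fold lower, log2 -0.70, limma adjusted p = 0.000307). Mrpl33 read 9003, 9203 and 9122 with EPA and 11646, 12045 and 11930 in control cells (1.30-fold lower, limma adjusted p = 0.00201). Its replicates were tight, with an SD of 101 with EPA and 205 in control cells. The other 9 had a smaller or no shift, from -0.23 for Mrpl17 to 0.12 for Mrpl34. Although the class had fewer calls, its median log2 fold change was -0.18. The EPA arrays lay entirely below the control arrays in 7 of the 11, where 22.7% of all genes showed this. Differences between the 3 classes were not tested.

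**Figure D2:**
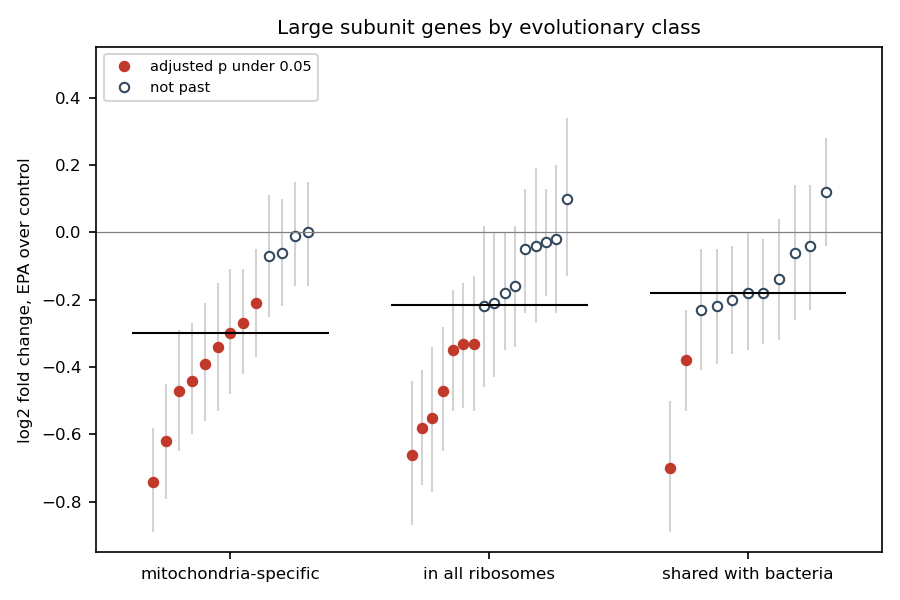
Log2 fold change, EPA over control (y axis), of the 40 tested large subunit genes in 3 classes. Points are genes with their 95% intervals from limma as grey lines, filled where the adjusted p is under 0.05, and black bars are class medians at -0.30, -0.22 and -0.18. Falls reach -0.74 and no filled point lies above 0.

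Several genes stayed near their control level. Mrpl37 read 796, 736 and 778 on the EPA arrays and 766, 770 and 780 on the control arrays, which is 99.7% of control with a 95% interval of -0.16 to 0.15 in log2. Mrpl43 read 1228, 1249 and 1169 with EPA and 1241, 1235 and 1192 in control cells, or 99.4% of control with the same interval. These intervals exclude a change as large as that of Mrpl49, the smallest fall that held whichever array was left out. The genes with a positive value were Mrpl18 and Mrpl34. Mrpl34 read 1184, 1107 and 1068 with EPA and 1018, 1068 and 1003 in control cells (log2 0.12, limma adjusted p = 0.234), and its lowest EPA array stood just above its highest control array. Mrpl18 overlapped between groups (log2 0.10, interval -0.13 to 0.34).

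Of the 22 genes that did not pass, 20 had a negative log2 fold change, and in 7 of them (Mrpl3, Mrpl9, Mrpl13, Mrpl17, Mrpl27, Mrpl28 and Mrpl55) every EPA array was below every control array. Mrpl27 missed the threshold narrowly (log2 -0.22, limma adjusted p = 0.0508), as did Mrpl55 (log2 -0.20, limma adjusted p = 0.0593). Calls were spread evenly over brightness. Among the 20 brighter of the 40, 9 fell, and among the 20 dimmer, 9 fell. Across the 40 genes the Spearman rho between control intensity and log2 fold change was -0.14, given as a description over genes that share the same arrays. By probe number, 11 of the 24 genes read by 1 probe and 7 of the 16 read by several probes fell. Mrpl35 and Mrpl51 were close to background, with mean intensities of 79.5 and 59.6 with EPA and 81.7 and 62.0 in control cells, where a change is understated.

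The authors' deposited table of ratios holds 4423 targets, where the intensity table holds 30828. It lists 22 of the 45 genes, each with a ratio of EPA over control below 1, from 0.60 to 0.89. In the authors' deposited table as a whole, 51.6% of targets have a negative log2 ratio. All 18 genes that fell here are among the 22. The table comes from the same arrays and is not an independent measurement.

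Large subunit proteins whose target IDs do not follow the MRPL pattern were looked at next. Mrpl58, a peptidyl-tRNA hydrolase built into the subunit, fell to 311 ± 21.3 with EPA, against 375 ± 17.9 in control cells (SD, n = 3 each; log2 -0.27, limma adjusted p = 0.0259). Mrps18a, named for the small subunit but located in the large one, fell to 1495 ± 47.0 with EPA, against 1757 ± 82.6 in control cells (limma adjusted p = 0.0328). Mrps30, likewise a large subunit protein, and Mrpl57 did not pass, at log2 fold changes of -0.09 and -0.12. Mrpl42, found under an older name and named after its value was seen, had a log2 fold change of -0.21 (limma adjusted p = 0.15).

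Genes of the small subunit of the mitochondrial ribosome fell too. Of 26 targets with an MRPS name, Mrps18a and Mrps30 left out, 25 were tested. In limma 13 fell, 0 rose, also at an unadjusted p of 0.05, and 12 did not pass, with a median log2 fold change of -0.25. The share of the 25 that fell was above the 45.0% of the large subunit and the 15.6% of all genes. The difference between the subunits was not tested. Mrps17, Mrps18c and Mrps33 fell by 0.53, 0.53 and 0.40 on the log2 scale. Without EPA replicate 3 the number of falls was 8 in the small subunit and 17 in the large subunit.

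Some genes of the cytosolic ribosome also fell. In its large subunit, 6 of 29 tested genes fell (20.7%), 0 rose and 23 did not pass, with a median log2 fold change of -0.11. The number of falls was 3 without control replicate 1 and 3 without control replicate 2. In its small subunit, 8 of 26 tested genes fell (30.8%), 0 rose and 18 did not pass, with a median of -0.09. Here 5 fell without EPA replicate 3 and 5 without control replicate 2. Neither cytosolic list held a gene that was higher at an unadjusted limma p of 0.05. Falls made up 45.0% of the mitochondrial large subunit genes and 15.6% of all genes. Rpl13a had the strongest fall in the cytosolic large subunit (log2 -0.62, limma adjusted p = 0.000246). In the cytosolic small subunit, Rps27a averaged 2021 ± 109 with EPA and 3591 ± 200 in control cells (SD, n = 3 each; log2 -0.83, limma adjusted p = 7.74e-05), and Rps18 averaged 61.9 ± 8.02 with EPA and 115 ± 6.20 in control cells (log2 -0.91, limma adjusted p = 0.000184). Both falls were larger on the log2 scale than that of Mrpl53, although Rps18, like Mrpl51, read close to background with EPA. Some cytosolic genes were very bright, such as Rpl9 at 38440 ± 0.00 in control cells (SD, n = 3). Signals this bright may be near the upper limit of the arrays, where a change would be understated. That was not tested, and neither were differences between these sets of genes.

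**Figure D3:**
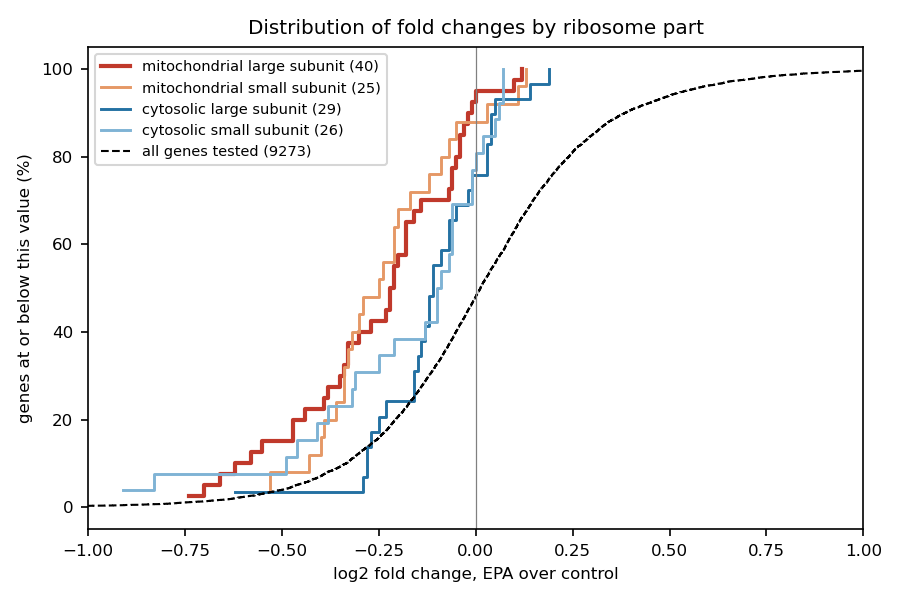
Cumulative share of genes (y axis, percent) at or below each log2 fold change, EPA over control (x axis), for the 40 mitochondrial large subunit, 25 mitochondrial small subunit, 29 cytosolic large subunit and 26 cytosolic small subunit genes and for all 9273 genes tested. At the medians, the mitochondrial curves lie at -0.22 and -0.25, the cytosolic curves at -0.11 and -0.09 and the curve of all genes at 0.01.

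Upstream of the ribosome, genes of mitochondrial transcription and its nuclear regulators fell in 6 of 16 tested cases (37.5%, against 15.6% of all genes). In limma 0 were higher, also at an unadjusted p of 0.05. Tefm, the elongation factor of the mitochondrial RNA polymerase, averaged 415 ± 13.2 with EPA and 824 ± 34.3 in control cells (SD, n = 3 each; log2 -0.99, limma adjusted p = 2.83e-05), a larger fall than that of any tested large subunit gene. Ssbp1, which binds single-stranded mitochondrial DNA, averaged 372 ± 32.1 with EPA and 528 ± 26.8 in control cells (limma adjusted p = 0.00158). Mterf1a and Tfb1m, which modifies the small ribosomal RNA, fell by 0.44 and 0.43 on the log2 scale.

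Assembly and ribosomal RNA modification factors fell in 6 of 19 tested cases (31.6%, against 15.6% of all genes). In limma 0 were higher (1 at an unadjusted p of 0.05) and 13 did not pass. Mettl17, which acts on the small subunit, averaged 164 ± 16.0 with EPA and 238 ± 20.9 in control cells (limma adjusted p = 0.00234). Mrm3, which methylates the large ribosomal RNA, fell by 0.42 on the log2 scale and Rpusd4, which converts a uridine in it to pseudouridine, by 0.31. Malsu1, which in human cells binds the Mrpl14 protein on the face turned to the small subunit, averaged 1464 ± 201 with EPA and 1911 ± 106 in control cells (limma adjusted p = 0.0148). Both members of this pair were thus lower with EPA.

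Factors that handle mitochondrial RNA went both ways. Of 13 tested, 5 fell (38.5%), 1 rose (7.69%) and 7 did not pass, while among all genes 15.6% fell and 18.4% rose. Slirp, which stabilises mitochondrial messenger RNA, averaged 1636 ± 133 with EPA and 2700 ± 221 in control cells (log2 -0.72, limma adjusted p = 0.000337). Its partner Lrpprc, named after its value was seen, was the gene that rose, averaging 172 ± 7.95 with EPA and 141 ± 3.58 in control cells (log2 0.29, limma adjusted p = 0.0125). Trmt10c, part of the enzyme that frees transfer RNAs from the primary transcript, fell by 0.62 on the log2 scale, Ptcd3 by 0.44 and Fastk by 0.39.

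Of 10 translation factor genes tested, 2 fell, 2 rose and 6 did not pass, with a median log2 fold change of 0.02. Either share is near that of all genes, of which 15.6% fell and 18.4% rose. The initiation factor gene Mtif2 averaged 133 ± 8.92 with EPA and 254 ± 27.3 in control cells (log2 -0.94, limma adjusted p = 0.000102), and the release factor gene Mtrf1 fell by 0.37 on the log2 scale. Tufm, the elongation factor that brings charged transfer RNA, averaged 2005 ± 55.4 with EPA and 1673 ± 64.3 in control cells (log2 0.26, limma adjusted p = 0.0177), and Gfm1, the translocase, rose by 0.38 (limma adjusted p = 0.0404). In the list of membrane insertion and quality control genes, 2 of 11 rose (18.2%), 1 fell (9.09%) and 8 did not pass, which is no more than the shares among all genes. Oxa1l, which inserts the new proteins into the inner membrane as they leave the ribosome, averaged 314 ± 11.6 with EPA and 240 ± 16.9 in control cells (log2 0.39, limma adjusted p = 0.00431). Letm1 rose by 0.27 on the log2 scale, and the matrix protease gene Lonp1 fell by 0.27.

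**Figure D4:**
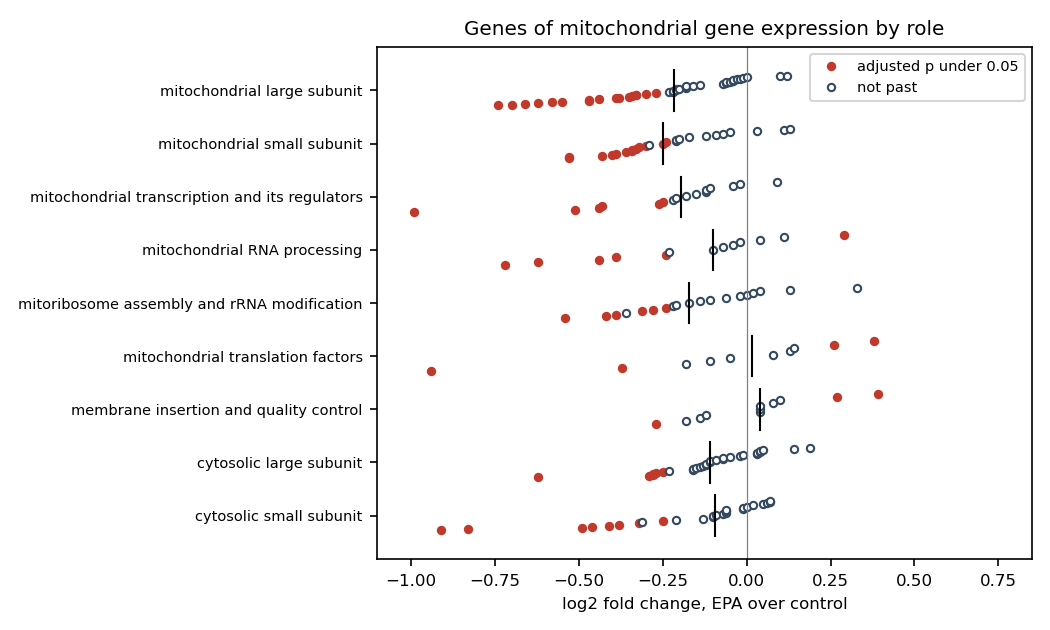
Log2 fold change, EPA over control (x axis), of genes of mitochondrial gene expression in 7 lists, with the cytosolic subunits as the bottom rows. Points are genes, filled where the adjusted p is under 0.05, and vertical bars are list medians. The ribosomal rows have filled points left of 0 alone, while translation factors have 2 on each side.

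In the RefSeq promoter table, 39 of the 45 genes have an entry of 250 bases before to 50 after the start. Letters known for regulators of mitochondrial genes were searched on both strands. The ETS-family core CCGGAAG was in 13 of the 39 (33.3%), against 21.5% of the 7459 tested genes with an entry and 9.93% of all genes in the table. GCGCATG, from the NRF1 motif, was in 7 of the 39 (17.9%), against 8.25% of tested genes and 4.41% of all. The ETS core was in 5 of 16 that fell and in 7 of 19 that did not pass, and the NRF1 letters were in 2 of 16 and 3 of 19. Of the sequences printed above, Mrpl53 with its 1.67-fold fall and Mrpl43 at 99.4% of control each carry the ETS core at 2 positions. The printed stretches of Mrpl14 and Mrpl46, which also fell, carry none. The stretches differ in length, with 250 bases for Mrpl53, 115 for Mrpl43, 130 for Mrpl14 and 41 for Mrpl46. Their matches therefore cannot be compared directly. The YY1 core ATGGCGG was in 7 of 39 (10.1% of tested genes) and the E-box CACGTG, bound by MYC, in 4 of 39 (11.9% of tested genes). The gene for NRF1, a transcription factor for nuclear genes of mitochondria, fell to 163 ± 8.70 with EPA, against 195 ± 7.40 in control cells (limma adjusted p = 0.0242), and Myc, which is on the same list, did not pass (log2 -0.12). Nrf1 and Myc were singled out after their values were seen.

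Some of the genes start back to back with a neighbour. For 16 of the 39, a gene on the opposite strand starts within 1000 bases upstream, and in 10 of these pairs both genes were tested. How common such neighbours are among all genes was not counted, so no trait of the large subunit genes can be read from this. Mrpl46 and Mrps11, a small subunit gene, start 42 bases apart, and both fell, by 0.62 and 0.30 on the log2 scale. Mrpl43 and Twnk, the helicase of mitochondrial DNA, start 116 bases apart, and neither passed, with log2 fold changes of -0.01 and -0.02. Other pairs were split. Mrpl14 fell while its neighbour Tmem63b did not pass (log2 0.26), and Mrpl40 fell while Hira had 0.03. Tcp1 and Klc4 rose next to Mrpl18 and Mrpl2, which did not pass, and Mitd1 fell next to Mrpl30, which did not. Of the 10 pairs, 1 had both genes lower, and in 3 the large subunit gene fell and the neighbour did not pass. These pairs were named after their values were seen.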

How the data were processed

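Total RNA of 3 EPA and 3 control samples was read on Illumina bead arrays. The exports of the series name GenomeStudio, quantile normalisation and MouseWG-6 v2 content, per the file headers. The deposited intensity table was used, which is linear with an array median of 35.2. The sources used here do not say how probes of a target were combined or whether background was corrected. A ratio per target and its log2 value come from the authors' deposited table. Another 102 columns, headed by array numbers found in no label, were not used.

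Targets were named through the RefSeq table of GRCm38.p6, used for names and start-site neighbours (16218 by current symbol, 5702 by 1 older synonym). The background limit was the mode of the intensities (28.05) plus 1.645 times the spread below it (6.924). It kept 11807 targets and 9273 named genes, with the brightest target for each gene. Log2 intensities were tested by limma 3.58.1, run in R 4.3.3, with moderated two-sided tests, and p-values were adjusted over 9273 genes by the Benjamini-Hochberg method (threshold 0.05). The fit was tested on simulated data. Folds are ratios of geometric means, which for dim genes understate a change, since background was left in. Precision is limited by having 3 arrays a group.

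The members and lists were chosen with earlier results of these data known. All members are accounted for, those past the threshold with values per array, and other lists by counts and up to 4 genes with the smallest p, apart from genes said to be named after their values were seen. Deviations of same-numbered samples from their group means correlated at -0.04, -0.18 and 0.10, so the numbers were not taken to pair samples. The promoter table's motifs and neighbours were searched after the fit.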

Additional observations from a re-analysis of the deposited data

How the results depend on the processing

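Under all 13 alternatives run, no large subunit gene passed as higher, and the 18 falls became 10 to 22. The change beyond 1.5 times came without the filter on dim targets, which raises the number of genes tested: 10 of the 18 large subunit genes then passed as lower, with 1312 of all genes called and 582 of all genes lower. The 10 were Mrpl1, Mrpl14, Mrpl20, Mrpl24, Mrpl33, Mrpl46, Mrpl47, Mrpl48, Mrpl52 and Mrpl53, and they passed under every alternative. A further 5 (Mrpl15, Mrpl16, Mrpl49, Mrpl50 and Mrpl54) passed under every alternative but that one. Leaving out 1 array gave 16 to 19 falls and a median log2 fold change of -0.238 to -0.199. All-gene calls then ran from 2375 to 2950. Without the filter, falls numbered 3 in the mitochondrial small, 1 in the cytosolic large and 5 in the cytosolic small subunit, and background subtraction left 5 in the cytosolic small subunit. With the replicate number as a block, 17 large subunit genes fell, Mrpl40 being lost, and 2924 genes were called in all. The numbers were not taken to pair the samples in the main fit. Centring the arrays on their median gave 21 falls, and background subtraction 17. Signs turned in 9 leave-one-out fits, never past the threshold. The log2 fold change then ran from -0.139 to 0.068 for Mrpl2, -0.091 to 0.088 for Mrpl4, -0.095 to 0.030 for Mrpl35, -0.124 to 0.020 for Mrpl36, -0.029 to 0.028 for Mrpl37 and -0.029 to 0.019 for Mrpl43. Signal near background limits what can be said of Mrpl35 and Mrpl51, and nothing can be said of the 5 genes below it.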
